A study of Mus musculus with 31 samples.

Results

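The enzymes of glycolysis, of the steps between pyruvate and acetyl-CoA, and of the tricarboxylic acid (TCA) cycle were followed across the life of the mouse hippocampus. The list holds 37 genes, chosen by name and not by their values, and a probeset (the group of short probes that reads a transcript on the array) was taken as a member when the annotation of the array gives it to a listed symbol and to no other gene. In this way 35 genes were found with 81 of the 45037 mouse probesets, and 75 of the 81 were among the 26877 probesets tested. Gpi1 and Eno1 have no probeset under those symbols in the annotation used and were not analysed here. Every one of the 35 genes has at least 1 tested probeset, and 21 have more than 1. Each gene is shown by its tested probeset with the highest mean.

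Hippocampal RNA of male C57BL/6 mice was hybridized to 31 Affymetrix GeneChip arrays of the mouse genome. Tg mice carry a Glud1 transgene, which over-expresses the mitochondrial enzyme glutamate dehydrogenase in neurons, and wt mice of the same background served as controls. There were 3 Tg and 3 wt arrays at 4.5, 9, 14.5 and 20 months, and 3 Tg and 4 wt arrays at 10 days. The methods give 3 mice of each genotype at each age, and whether the fourth wt array at 10 days is a further mouse is not stated in the sources used here. All tissue is whole hippocampus, so fewer cells of a type and less RNA per cell cannot be told apart, and the Glud1 probesets lie in a stretch that the transgene lacks and do not check the genotype labels. Values are log2 signals after quantile normalization over all arrays, changes are differences of group means on that log2 scale with their standard error (SE), and a gene was called at an adjusted p under 0.05 (limma, Benjamini-Hochberg over all probesets tested). The level of a probeset cannot be set against that of another probeset, because each binds its target with its own strength.

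Glycolysis turns glucose into pyruvate in the cytosol. Hexokinase and phosphofructokinase hold its controlled early steps, and pyruvate kinase closes it. Lactate dehydrogenase interconverts pyruvate and lactate. In the mitochondrion the pyruvate dehydrogenase complex makes acetyl-CoA and is switched off by its kinases, and the TCA cycle oxidizes acetyl-CoA to feed the respiratory chain. Many of these steps are carried out by isozymes, related enzymes from separate genes that differ between tissues and cell types. In the brain, glycolysis is strong in astrocytes, and neurons rely heavily on oxidation of pyruvate and lactate.

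The tissue labels were checked against marker genes, whose linear signals were summed in each array. Neuron markers gave sums of 70600 to 83200 in all arrays. From 10 days to 4.5 months the sum over 7 genes of oligodendrocytes and myelin moved from between 6200 and 12100 to between 54300 and 74100, and that over 7 genes of dividing cells and immature neurons from between 21300 and 24700 to between 5250 and 5710. Astrocyte markers moved from between 42600 and 48400 to between 55300 and 63600, microglia markers from between 7630 and 9020 to between 11300 and 13100, and markers of endothelial cells and pericytes from between 6220 and 7680 to between 4070 and 5460. These sums are led by the brightest genes, and single genes went both ways. Of 8 astrocyte markers 5 rose and 3 fell, and of 8 microglia markers 6 rose and 2 fell. Of 8 markers of endothelial cells and pericytes 1 rose and 5 fell, and of 6 neuron markers 4 rose and 2 fell. Of all genes 31.2% rose and 35.5% fell. From 4.5 to 20 months 6 of 8 microglia markers rose and 3 of 6 neuron markers fell, while of 8 astrocyte markers 3 rose and 2 fell. Of all genes 22.4% rose and 19.9% fell over that span. The markers of the choroid plexus, a tissue that lies against the hippocampus, ranged from 684 to 44700 at 4.5 months alone, and 6 arrays, 2 of them at 10 days, 3 at 4.5 months and 1 at 9 months, held 684 to 6750 where the median of all arrays was 38700. The log2 ratio of the Gapdh 3' and 5' control probesets, a sign of RNA quality, was -0.0782 to 0.0182 at 4.5 months and -0.434 to -0.191 at 10 days (exact permutation test, two-sided, p = 0.00117). At 20 months it was -0.463 to -0.433 (p = 0.00216 against 4.5 months by the same exact test). The beta-actin ratio was highest at 9 months, at 0.709 to 0.963. The part of cell makeup and RNA quality in the age changes described here was not tested.

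The promoter sequences of 6 members are shown because these genes had the largest changes with age or are the partners in the isozyme pairs that shifted most. Each is the RefSeq window from 250 bases before to 50 bases after the most upstream start listed for the gene (GRCm38.p6), written 5' to 3' on the strand of the gene. The windows are chr7:46845554-46845853 (plus strand) for Ldha, chr6:142507908-142508207 (minus) for Ldhb, chr2:71872974-71873273 (plus) for Pdk1, chr11:95041322-95041621 (minus) for Pdk2, chr10:78009758-78010057 (minus) for Pfkl and chr1:65186430-65186729 (minus) for Idh1. Capitals mark ACGTG or GCGTG on either strand, the short core that hypoxia-inducible factors bind, and neighbouring matches may overlap.
Ldha: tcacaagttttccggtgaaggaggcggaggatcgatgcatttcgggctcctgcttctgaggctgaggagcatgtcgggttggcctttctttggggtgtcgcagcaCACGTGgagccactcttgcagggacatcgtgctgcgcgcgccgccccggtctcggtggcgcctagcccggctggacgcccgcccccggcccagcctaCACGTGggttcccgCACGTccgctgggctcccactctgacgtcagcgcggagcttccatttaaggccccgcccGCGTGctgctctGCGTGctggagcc
Ldhb: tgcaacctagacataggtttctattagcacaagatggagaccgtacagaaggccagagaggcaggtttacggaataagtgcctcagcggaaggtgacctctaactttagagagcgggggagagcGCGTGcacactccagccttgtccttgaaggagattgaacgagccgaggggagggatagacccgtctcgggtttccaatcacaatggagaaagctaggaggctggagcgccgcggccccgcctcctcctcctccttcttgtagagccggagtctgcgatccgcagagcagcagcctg
Pdk1: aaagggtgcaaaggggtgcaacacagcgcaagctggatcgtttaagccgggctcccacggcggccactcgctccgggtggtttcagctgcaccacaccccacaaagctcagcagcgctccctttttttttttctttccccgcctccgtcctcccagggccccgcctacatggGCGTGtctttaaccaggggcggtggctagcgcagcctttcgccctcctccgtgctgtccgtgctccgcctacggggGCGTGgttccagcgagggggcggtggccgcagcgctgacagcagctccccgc
Pdk2: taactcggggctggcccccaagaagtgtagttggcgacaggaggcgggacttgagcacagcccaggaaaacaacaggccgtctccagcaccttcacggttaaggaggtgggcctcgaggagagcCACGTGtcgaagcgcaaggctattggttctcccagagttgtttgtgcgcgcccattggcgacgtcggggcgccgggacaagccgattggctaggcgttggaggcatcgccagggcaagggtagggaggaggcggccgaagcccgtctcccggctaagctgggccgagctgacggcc
Pfkl: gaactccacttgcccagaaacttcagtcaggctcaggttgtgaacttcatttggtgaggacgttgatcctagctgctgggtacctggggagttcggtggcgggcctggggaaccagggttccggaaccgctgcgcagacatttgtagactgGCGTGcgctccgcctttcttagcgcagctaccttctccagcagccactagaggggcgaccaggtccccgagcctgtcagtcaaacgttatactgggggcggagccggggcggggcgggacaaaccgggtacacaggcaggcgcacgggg
Idh1: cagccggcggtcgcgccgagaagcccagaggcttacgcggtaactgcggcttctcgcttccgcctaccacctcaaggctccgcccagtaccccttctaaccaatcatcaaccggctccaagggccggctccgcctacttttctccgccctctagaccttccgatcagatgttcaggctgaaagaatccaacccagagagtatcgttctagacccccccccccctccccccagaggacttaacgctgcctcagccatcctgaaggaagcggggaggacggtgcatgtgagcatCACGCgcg

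The Ldha window held 7 matches to these cores and its partner Ldhb held 1. Pdk1 and Pdk2 held 2 each, and Pfkl and Idh1 held 1 each. The sequence CACGTG reads the same on both strands and counts as 2 matches. Both Pdk2 matches are 1 such stretch and Ldha holds 2 such stretches, while the 2 matches of Pdk1 are separate. Windows were found for 34 of the 35 genes (Idh3a is not in the table), and 22 of the 34, or 64.7%, held at least 1 match, against 43.8% of 27025 windows of all genes in the table. GGGCGG, the core of the GC box of many steadily used genes, was found on either strand in 64.7% of the member windows and in 35.9% of all. These letters describe the windows and are not measured binding sites.

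**Figure D1:**
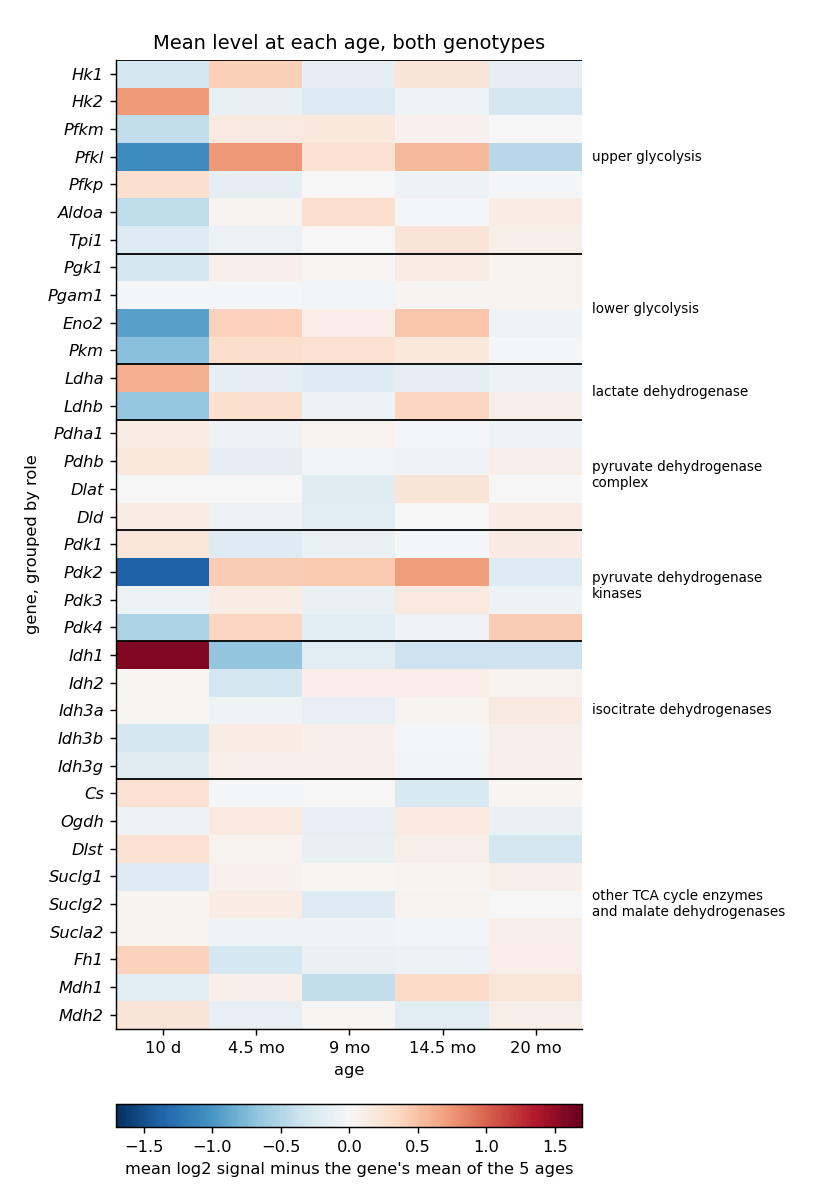
Mean log2 signal of the 35 genes at each of 5 ages (columns), both genotypes together, minus the mean of the 5 ages of the same gene, so that colours compare ages within a gene and not genes with each other. Idh1 was highest at 10 days, while Pfkl, Pdk2, Eno2 and Pkm were lowest there.

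The first comparison asked how these enzymes change while the hippocampus matures, from 10 days to 4.5 months (7 and 6 arrays). Genes of glycolysis rose more often than they fell, 3 of 4 genes of the pyruvate dehydrogenase complex fell, and genes of the TCA cycle moved in both directions. Of the 35 genes, 16 rose and 14 fell, where 31.2% of all 12844 genes tested rose and 35.5% fell. The median change of the members was 0.085, against -0.04 over all genes, and the median size of a change, without its sign, was 0.351 against 0.406. All arrays at 4.5 months lay above all arrays at 10 days for 14 members and below them for 12, which is the case for 20.1% and 23.1% of all genes. When the genotypes, which are separate mice, were taken alone, 14 members were called as rising in both Tg and wt and 10 as falling in both, against 21.8% and 23.7% of all genes. No member was called in opposite directions. Without quantile normalization the median of all probesets moved from 0.01 to 0.138 and that of the members from 0.085 to -0.07, and 15 members rose and 16 fell.

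Among the enzymes of upper glycolysis 5 of 7 rose and 2 fell. Pfkl, the liver-type subunit of phosphofructokinase, lay at 10.65 to 10.95 (median 10.82) at 10 days and at 12.50 to 12.69 (median 12.62) at 4.5 months. Every adult array at 4.5 months was above every array at 10 days, and the change was 1.81 ± 0.0521, a 3.5-fold rise (adjusted p = 4.27e-22). Its second probeset, 1450269_a_at, rose by 1.39 ± 0.0496. The third, 1453541_at, did not pass the test (0.67, 95% interval -0.248 to 1.59). Hk1, the hexokinase bound to mitochondria that is typical of brain, moved from 12.13 to 12.32 (median 12.28) up to 12.94 to 12.98 (median 12.97), a rise of 0.71 ± 0.0371 (adjusted p = 3.1e-16).

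Hk2, the hexokinase more typical of muscle and of growing cells, went the other way. Its values were 8.43 to 8.84 (median 8.73) at 10 days and 7.19 to 8.22 (median 7.86) at 4.5 months, and the wt array at 7.19 stood below the other 5 at that age. The fall was 0.83 ± 0.134 on the log2 scale, or 1.78-fold (adjusted p = 3.52e-06). Of the other phosphofructokinase subunits, the muscle type Pfkm rose by 0.57 ± 0.0442 and the platelet type Pfkp decreased by 0.44 ± 0.0487. Aldoa (aldolase A) rose by 0.48 ± 0.0332 and all 5 of its probesets rose. Tpi1 (triosephosphate isomerase) rose by 0.13 ± 0.0494, but another Tpi1 probeset, 1435659_a_at, did not pass the test (-0.05 ± 0.0385), and without quantile normalization the first was at -0.11 with an adjusted p of 0.0734.

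In lower glycolysis 3 of 4 genes rose. Eno2 encodes gamma-enolase, the enolase of mature neurons. It lay at 12.12 to 12.33 (median 12.18) at 10 days and at 13.44 to 13.59 (median 13.52) at 4.5 months, a rise of 1.31 ± 0.0423 or 2.48-fold (adjusted p = 4.82e-21). Pkm, pyruvate kinase of muscle and brain, went from 12.41 to 12.66 (median 12.55) up to 13.48 to 13.64 (median 13.56), a rise of 1.02 ± 0.0409 or 2.03-fold (adjusted p = 6.09e-19). Neither gene had overlapping ages. Pgk1 (phosphoglycerate kinase) rose by 0.38 ± 0.0349, and Pgam1 (phosphoglycerate mutase) was at -0.01 with a 95% interval of -0.0851 to 0.059.

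The subunits of lactate dehydrogenase moved apart. Ldhb, the subunit of heart and neurons, lay at 11.92 to 12.22 (median 12.08) at 10 days and at 12.89 to 13.05 (median 13.01) at 4.5 months. It rose by 0.92 ± 0.0505, and its other 3 probesets rose by at least 1.01 ± 0.0716. Ldha, the subunit of muscle and of strongly glycolytic cells, lay at 13.09 to 13.25 (median 13.17) and then at 12.22 to 12.54 (median 12.41). The fall was 0.76 ± 0.0529 (adjusted p = 2.29e-13), and the ages did not overlap for either gene.

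None of the 4 genes of the pyruvate dehydrogenase complex rose and 3 fell. Pdhb, the beta subunit of the first enzyme, decreased by 0.33 ± 0.0447, its alpha subunit Pdha1 by 0.21 ± 0.0367 and Dld, the shared last enzyme, by 0.20 ± 0.0535. A second Pdha1 probeset, 1449137_at, decreased by 0.82 ± 0.067. Dlat, the middle enzyme, was at -0.01 on the probeset shown, while 1452005_at decreased by 0.23 ± 0.053.

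The kinases that switch the complex off did not move as a group, with 2 of 4 rising and 1 falling. Pdk2 lay at 8.56 to 8.86 (median 8.81) at 10 days and at 10.56 to 10.69 (median 10.58) at 4.5 months. It rose by 1.82 ± 0.067, a 3.54-fold change and, with that of Pfkl, the largest rise among the members (adjusted p = 7.74e-20). Pdk4, known to rise in fasting, went from 7.76 to 8.29 (median 8.01) up to 8.38 to 9.38 (median 8.85), a rise of 0.89 ± 0.136. Pdk1 fell by 0.41 ± 0.0634 on the probeset shown, from 9.99 to 10.21 (median 10.06) down to 9.56 to 9.80 (median 9.69). Its other probesets did not follow, since 1423748_at rose by 0.57 ± 0.13 and 1434974_at by 0.92 ± 0.352, and the direction of Pdk1 therefore depends on the probeset. Pdk3 was at 0.22 ± 0.102 (adjusted p = 0.0635).

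The isocitrate dehydrogenases held the largest fall. Idh1, the NADPH-making enzyme of the cytosol and peroxisomes and not a step of the cycle itself, lay at 12.65 to 12.90 (median 12.81) at 10 days and at 10.29 to 10.77 (median 10.60) at 4.5 months. The fall was 2.25 ± 0.102 on the log2 scale, or 4.74-fold (adjusted p = 4.82e-17), and a second probeset, 1419821_s_at, decreased by 2.01 ± 0.0624. Idh2, its mitochondrial counterpart, decreased by 0.30 ± 0.0815, with values of 9.49 to 10.10 (median 9.64) and then 9.18 to 9.63 (median 9.42) that overlapped. Of the 3 subunits of the NAD-dependent enzyme, Idh3b rose by 0.41 ± 0.0353 and Idh3g by 0.30 ± 0.0404. Another Idh3b probeset, 1418885_a_at, was at 0.10 ± 0.0527 (adjusted p = 0.0914), and with the median over probesets Idh3b was not called. The catalytic subunit Idh3a was at -0.07 (95% interval -0.158 to 0.0179) on the probeset shown, but 1422501_s_at decreased by 0.36 ± 0.0561 and 1422500_at by 0.89 ± 0.0747.

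Among the other 9 enzymes of the cycle 3 rose and 5 fell. Fh1 (fumarase) lay at 11.74 to 11.95 (median 11.86) at 10 days and at 11.06 to 11.39 (median 11.14) at 4.5 months. It fell by 0.69 ± 0.0493, the largest change of this group. Smaller falls were found for Mdh2 (mitochondrial malate dehydrogenase, by 0.35 ± 0.0428 on the log2 scale), Cs (citrate synthase, by 0.29 ± 0.0318), Dlst (by 0.19 ± 0.0661) and Sucla2 (by 0.11 ± 0.0476). The Sucla2 call was lost with no filter (adjusted p = 0.0592), with moderation without the trend (adjusted p = 0.0644) and without Tg replicate 1 at 4.5 months (-0.08, adjusted p = 0.169). The rises were those of Suclg1 (0.29 ± 0.0373), Mdh1, the malate dehydrogenase of the cytosol (0.28 ± 0.0725), and Ogdh (0.26 ± 0.0589). Without quantile normalization Mdh1 was at 0.05 (adjusted p = 0.588), and its probeset 1454925_x_at was at -0.01 ± 0.0841. Suclg2 was at 0.08 ± 0.0706 and did not pass the test. Probesets disagreed for Cs, where 1422578_at rose by 0.08 ± 0.0298, and for Dlst, where 1437775_at rose by 1.79 ± 0.17.

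**Figure D2:**
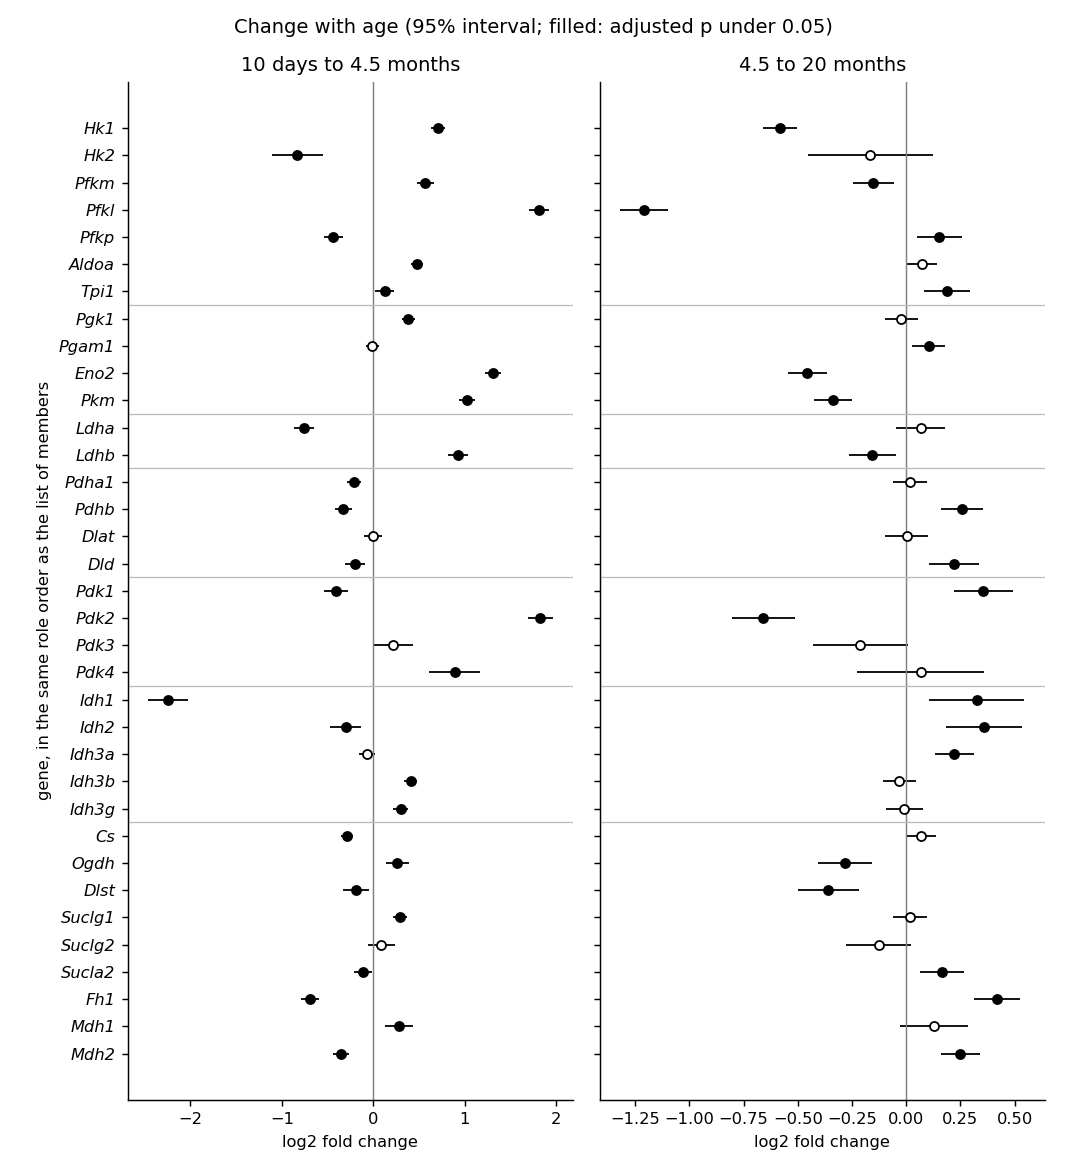
Log2 change of each of the 35 genes between 10 days and 4.5 months (left) and from 4.5 to 20 months (right), ordered by role, with points for the estimate and bars for its 95% interval. Filled points passed the test (30 genes on the left, 21 on the right), and the axes of the panels differ in scale.

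The second comparison asked how the enzymes change from 4.5 to 20 months (6 arrays each). It shares the arrays at 4.5 months with the first, so a value that is off at that age would push both changes in opposite directions. The largest falls were those of Pfkl, Pdk2, Hk1 and Eno2, and the rises were small. Of the 35 genes 12 rose and 9 fell, against 22.4% and 19.9% of all genes tested. The median change was 0.02 and that of all genes 0.03, and the median size without sign was 0.165 against 0.232. All arrays at 20 months lay above those at 4.5 months for 5 members and below them for 7 (11.8% and 12.2% of all genes). Members called in both Tg and wt when each was taken alone were 5 that rose and 7 that fell, against 8.95% and 10.2% of all genes. Without the 6 arrays low in choroid plexus genes 7 members rose and 9 fell, and without quantile normalization 15 rose and 7 fell.

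Pfkl lay at 11.32 to 11.55 (median 11.36) at 20 months, below all arrays at 4.5 months. The fall was 1.21 ± 0.0538 on the log2 scale, or 2.32-fold (adjusted p = 8e-17), and the fall was called in each genotype alone. Pdk2 lay at 9.75 to 10.11 (median 9.99), a fall of 0.66 ± 0.0691. Hk1 lay at 12.29 to 12.49 (median 12.38), a fall of 0.58 ± 0.0383, and Eno2 at 12.99 to 13.12 (median 13.08), a fall of 0.46 ± 0.0437. None of these 4 genes had overlapping values at the 2 ages. Pkm decreased by 0.34 ± 0.0422 and also had no overlap, with 13.08 to 13.28 (median 13.25) at 20 months.

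The largest rises were those of Fh1, Idh2, Pdk1 and Idh1. Fh1 lay at 11.49 to 11.68 (median 11.61) at 20 months, a rise of 0.42 ± 0.051 that took it above every array at 4.5 months. Idh2 rose by 0.36 ± 0.0842 to 9.67 to 9.80 (median 9.75), also without overlap. Pdk1 rose by 0.36 ± 0.0655 to 9.90 to 10.38 (median 9.99), and the probeset 1423747_a_at rose by 0.37 ± 0.117. The Pdk1 probesets 1423748_at (-0.21 ± 0.135) and 1434974_at (0.08 ± 0.364) were not called, and the median over probesets gave 0.08 (adjusted p = 0.516). Idh1 rose by 0.32 ± 0.106 to 10.61 to 11.11 (median 10.88), values that overlapped those at 4.5 months, and without wt replicate 1 of 4.5 months the difference was 0.26 with an adjusted p of 0.0591.

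By role, upper glycolysis had 2 rises and 3 falls of 7 genes, and lower glycolysis 1 rise and 2 falls of 4. On the probeset shown Ldhb fell by 0.16 ± 0.0521, a call that was lost without Tg replicate 3 at 20 months (adjusted p = 0.0659). The other Ldhb probesets were also called, and 1448237_x_at fell by 0.29 ± 0.053, 1455235_x_at by 0.30 ± 0.0739 and 1434499_a_at by 0.41 ± 0.0503. Ldha was at 0.07 (95% interval -0.0478 to 0.18). In the pyruvate dehydrogenase complex Pdhb rose by 0.26 ± 0.0462 and Dld by 0.22 ± 0.0553, and none fell. Pdha1 and Dlat were not called on the probesets shown, but Pdha1 1449137_at rose by 0.56 ± 0.0692 and Dlat 1452005_at by 0.27 ± 0.0547. The remaining Dlat probeset, 1426265_x_at, was not called (-0.04 ± 0.044). Of 5 isocitrate dehydrogenases 3 rose, Idh3a by 0.22 ± 0.0437 on the probeset shown and by 0.70 ± 0.0579 and 0.93 ± 0.0772 on the others that passed the test. Among the remaining enzymes of the cycle Fh1, Mdh2 (0.25 ± 0.0442) and Sucla2 (0.16 ± 0.0492) rose, while Dlst decreased by 0.36 ± 0.0683 and Ogdh by 0.28 ± 0.0609. These last 2 encode subunits of the same complex, 2-oxoglutarate dehydrogenase. Probesets of Aldoa, Pfkp and Cs disagreed in direction: Aldoa 1434799_x_at rose by 0.40 ± 0.0502 and 1447734_x_at decreased by 0.37 ± 0.068, Pfkp rose by 0.15 ± 0.0502 on the probeset shown and 1437759_at decreased by 0.48 ± 0.18, and Cs 1422578_at decreased by 0.23 ± 0.0308 beside an uncalled 0.07 on the probeset shown. Pgk1, Suclg2 and Idh3g were not called on the probesets shown (-0.02, -0.13 and -0.01), while Pgk1 1438640_x_at rose by 0.27 ± 0.0428, Suclg2 1427441_a_at by 0.37 ± 0.145 and Idh3g 1416788_a_at by 0.10 ± 0.0404. Mdh1 was also uncalled on the probeset shown (0.13), while 1454925_x_at rose by 0.42 ± 0.0869. The Mdh1 probesets 1448172_at (0.09) and 1438338_at (-0.05) were not called.

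**Figure D3:**
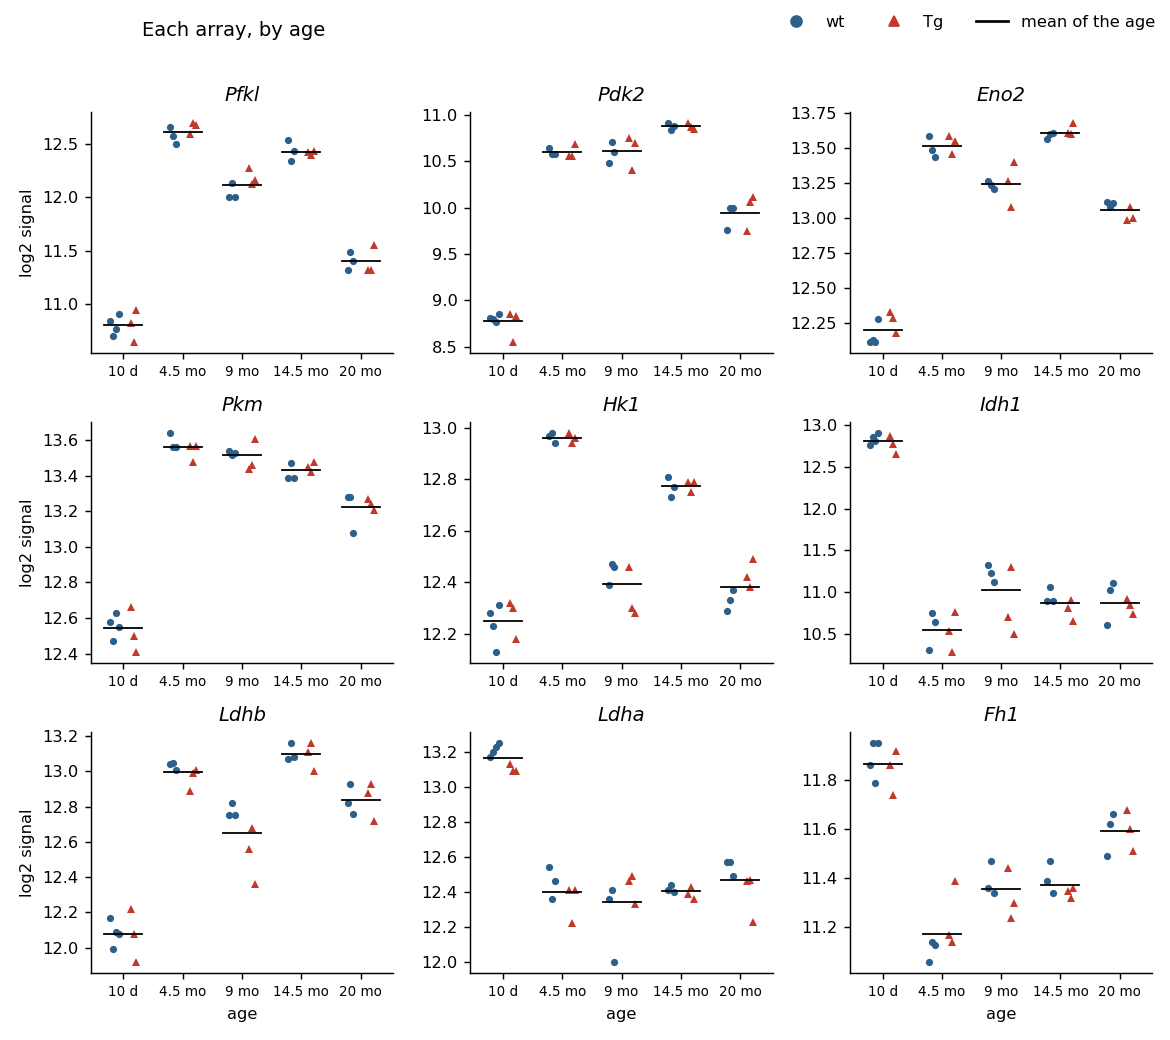
Log2 signal of 9 genes in each of 31 arrays, by age, with circles for wt, triangles for Tg and a line for the mean of the age. The vertical axes differ between genes. Pfkl, Pdk2 and Eno2 were lower at 20 than at 14.5 months in every array, and Hk1 and Ldhb were lower at 9 than at 4.5 or 14.5 months on the probesets shown.

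Levels did not move steadily through adult life. Over 4.5, 9, 14.5 and 20 months 31 of 35 genes differed between ages (limma F-test, adjusted p under 0.05), where 70.7% of all genes did, and Hk2, Pgk1, Ldha and Suclg1 did not pass. The adult age with the lowest mean was 9 months for 14 genes, 4.5 or 20 months for 8 each and 14.5 months for 5. The same counts were not made over all genes, so they do not set these enzymes apart. Hk1 lay at 12.28 to 12.47 (median 12.42) at 9 months and at 12.73 to 12.81 (median 12.78) at 14.5 months, so that it was low, high and low again after 4.5 months. Eno2 was at 13.08 to 13.40 (median 13.25) and then at 13.57 to 13.68 (median 13.61), and Ldhb at 12.36 to 12.82 (median 12.71) and then at up to 13.16 (median 13.09), all above the arrays at 9 months. The Ldhb probeset 1448237_x_at was likewise higher at 14.5 months in every array. The probesets 1455235_x_at and 1434499_a_at overlapped between these ages, the latter at 12.51 to 12.95 and then at 12.6 to 12.8. Mdh1 had the widest span between its adult means after Pfkl and Pdk2, at 0.742, with 13.14 to 13.59 (median 13.37) at 9 months and 14.04 to 14.19 (median 14.08) at 14.5 months. The arrays themselves also differed by age. Before normalization the linear signal near the top of each array was 27700 to 30200 at 9 months and 15400 to 16100 at 14.5 months. It was 20800 to 23200 at 4.5 months and 21300 to 24000 at 20 months. Such array differences cannot be told apart from age here, and their part was not tested.

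The direction of aging therefore depended on the adult age it was measured from. With 9 in place of 4.5 months, 12 members rose and 8 fell until 20 months, against 21.7% and 17.9% of all genes. On the probesets shown, however, Ldhb rose by 0.19 (limma, adjusted p = 0.0046) and Hk1 was at -0.02 (adjusted p = 0.778). The Ldhb probeset 1434499_a_at lay at 12.51 to 12.95 at 9 months and at 12.48 to 12.59 at 20 months, and so showed no such rise. At these ages 1448237_x_at lay at 12.34 to 12.87 and then 12.62 to 12.83, and 1455235_x_at at 12.4 to 12.94 and then 12.6 to 12.77. Both stayed inside their range at 9 months, so the turn of Ldhb rests on the probeset shown. Pfkl, Pdk2, Eno2, Pkm, Pfkm and Dlst were among the genes that fell from either start, and Fh1, Pdk1, Idh3a and Dld among those that rose. Without quantile normalization the Pfkm difference from 4.5 months was -0.08 and not called (adjusted p = 0.226). From 9 to 20 months, with quantile normalization, Pfkl fell by 0.71 ± 0.0538 and Pdk2 by 0.66 ± 0.0691. For maturation the largest changes stood with 9 months as the later age, at 1.83 ± 0.067 for Pdk2, 1.31 ± 0.0521 for Pfkl, 1.03 ± 0.0423 for Eno2, -1.77 ± 0.102 for Idh1 and -0.82 ± 0.0529 for Ldha.

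The last adult interval, 14.5 to 20 months, uses neither the arrays at 4.5 nor those at 9 months and was added after the values had been seen. There 10 members rose and 9 fell, against 18.3% and 15.3% of all genes, and without quantile normalization 15 rose and 8 fell. It shares the arrays at 20 months with the comparison from 4.5 months. Pfkl lay at 12.34 to 12.53 (median 12.43) at 14.5 months and fell by 1.02 ± 0.0538. Pdk2 lay at 10.84 to 10.91 (median 10.88) and fell by 0.93 ± 0.0691, Eno2 fell by 0.55 ± 0.0437 and Hk1 by 0.39 ± 0.0383. Each of these genes was lower in every array at 20 than at 14.5 months. Dlst fell by 0.40 ± 0.0683 and Ogdh by 0.28 ± 0.0609, while Pdk4 rose by 0.49 ± 0.141, from 8.29 to 8.71 (median 8.49) up to 8.78 to 9.47 (median 8.89), and Mdh2 rose by 0.30 ± 0.0442. Cs rose by 0.28 ± 0.0329 on the probeset shown, but 1422577_at decreased by 0.42 ± 0.044 and 1422578_at by 0.09 ± 0.0308, so that its direction depends on the probeset. The log2 Gapdh ratio at 14.5 months was -0.398 to -0.352, and the sum of myelin markers was 57100 to 65000 there and 59800 to 69500 at 20 months. The microglia sum was 11000 to 11800 and then 12900 to 14100, and the log2 beta-actin ratio 0.315 to 0.399 and then 0.507 to 0.552, both without overlap.

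Isozyme pairs were compared within each array, as the log2 signal of a gene minus that of its partner. Since probesets differ in binding, the sign of this difference has no meaning and only its change with age can be read. Of 8 pairs listed, 7 could be formed, and 14 tests were made over 2 spans (exact permutation tests of the mean, two-sided, with Benjamini-Hochberg adjustment over the 14). For maturation the smallest p these arrays allow is 0.000583, and for aging it is 0.00216. The pairs hold genes whose changes are described above, and the difference restates them on a scale from which a factor common to both probesets of an array cancels.

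From 10 days to 4.5 months the difference Pdk2/Pdk1 rose by 2.24, from -1.48 to -1.13 up to 0.785 to 1.08. That of Ldhb/Ldha rose by 1.69, from -1.21 to -0.909 (median -1.14) up to 0.485 to 0.772 (median 0.576), and Hk1/Hk2 by 1.55. Pfkm/Pfkp rose by 1.01 and Pfkm/Pfkl fell by 1.24, so that Pfkm gained on the platelet type and lost against the liver type. In all 5 pairs the ages did not overlap, and each reached the smallest p the exact permutation test allows (p = 0.000583, adjusted p = 0.00163). Sucla2/Suclg2, the ATP- and GDP-linked subunits of succinyl-CoA synthetase, decreased by 0.20 (adjusted p = 0.0171), and Idh3a/Idh2 did not pass (0.24, adjusted p = 0.0546).

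From 4.5 to 20 months most pairs moved in the direction opposite to maturation. Both spans share the arrays at 4.5 months, so a value that is off at that age would produce such a turn. Pfkm/Pfkl rose by 1.06, from -0.234 to 0.149 (median -0.03) up to 0.861 to 1.18 (median 1.02), and Pdk2/Pdk1 fell by 1.01, from 0.785 to 1.08 (median 0.884) down to -0.621 to 0.208 (median -0.02). Neither pair overlapped between these ages (exact permutation test, p = 0.00216, the smallest possible, adjusted p = 0.00433). Ldhb/Ldha decreased by 0.22 (adjusted p = 0.00758), Pfkm/Pfkp by 0.31 (adjusted p = 0.0135) and Hk1/Hk2 by 0.42 (adjusted p = 0.0278), all with overlapping values. Sucla2/Suclg2 rose by 0.29 (adjusted p = 0.022), and Idh3a/Idh2 did not pass (-0.14, adjusted p = 0.203). The Hk1/Hk2 call was lost without wt replicate 2 at 4.5 months, Tg replicate 1 at 20 months or wt replicate 3 at 20 months. Against 9 months Ldhb/Ldha and Hk1/Hk2 did not fall (0.07 and 0.03, adjusted p = 0.669 and 0.788). Pfkm/Pfkp (-0.16, adjusted p = 0.0716) and Sucla2/Suclg2 (-0.04, adjusted p = 0.737) did not pass the same permutation test either. Pfkm/Pfkl (0.53) and Pdk2/Pdk1 (-0.91) kept their direction and call from that start. At 9 months Ldhb/Ldha ran from 0.02 to 0.742, and at 14.5 months from 0.638 to 0.73.

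**Figure D4:**
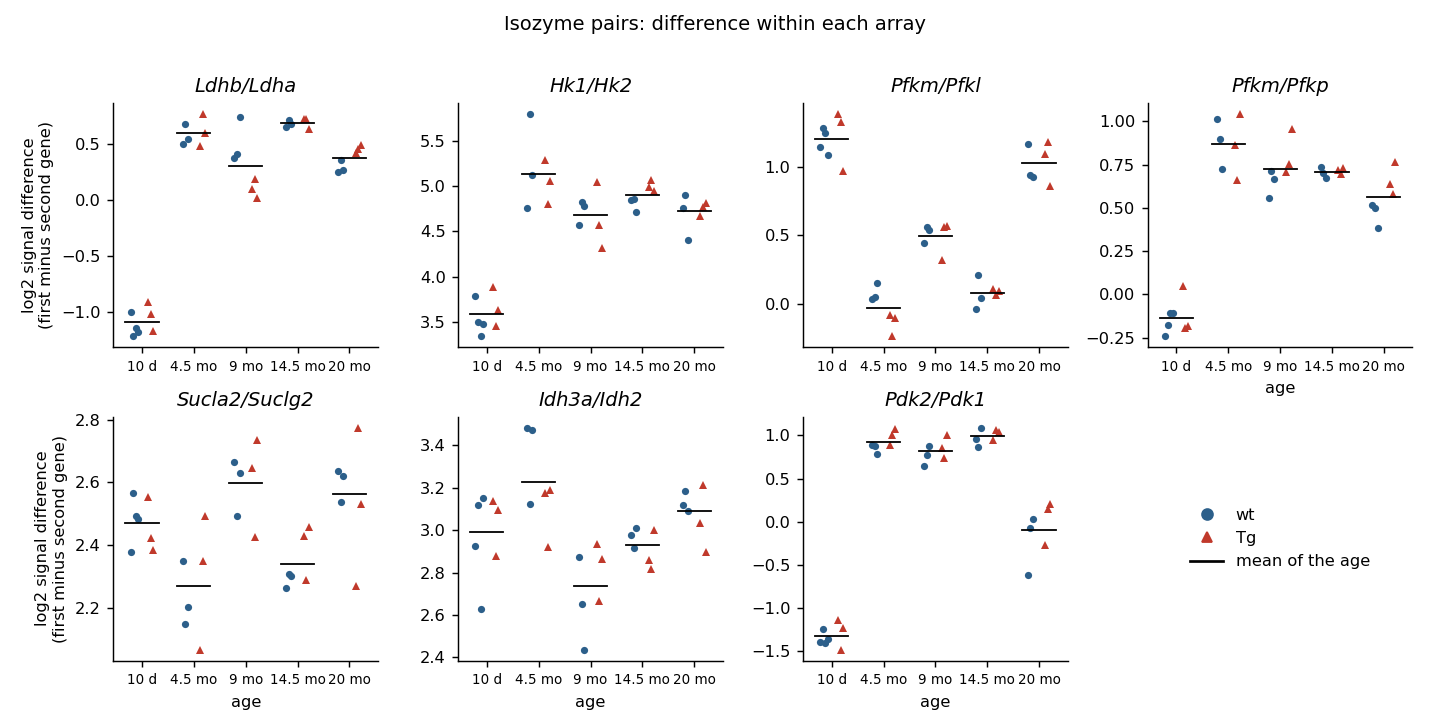
Log2 signal of the first gene minus that of the second within each of 31 arrays, for 7 isozyme pairs by age, with circles for wt, triangles for Tg and a line for the mean of the age. Only changes along the age axis can be read, and Pfkm/Pfkl returned at 20 months to 0.861 to 1.18, beside 0.967 to 1.38 at 10 days.

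The third comparison asked whether Glud1 over-expression in neurons changes these enzymes. On the probesets shown, none of the 35 genes passed the test in Tg vs. wt mice at any of the 5 ages. Of all 75 member probesets tested, 2 were called at 9 months, both of Ldhb and described below, and none at the other ages. Of all genes 0.00779% were called at 10 days, 0% at 4.5 months, 2.99% at 9 months, 0% at 14.5 months and 0.0389% at 20 months. At an unadjusted p under 0.05 there were 0, 4, 4, 0 and 1 members at these ages in turn, where 5.65%, 6.73%, 18.1%, 0.942% and 4.84% of all genes had such a p. The 4 of 35 members are a smaller share than that of all genes at 9 months and a larger one at 4.5 months. Over the mean of the 5 ages 0 members and 0.0156% of all genes were called (4 members and 8.5% of all genes unadjusted), and for a genotype difference that varies with age 0 members and 0.0623% of all genes (2 members and 8.38% of all genes unadjusted). The median SE at a single age was 0.0665 to 0.0711, which leaves 95% intervals of about 0.138 to 0.148 to either side for a typical member, and up to 0.414 for the most variable. Differences that small could not be told from none with these arrays. Larger ones could also be missed, because a call needed an adjusted p over all probesets tested. Ldhb at 9 months, at -0.24 ± 0.0737 on the probeset shown, was not called.

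At 9 months, the age with most calls over all genes, Ldhb was the nearest to a call. On the probeset shown, 1416183_a_at, the Tg arrays were at 12.56, 12.68 and 12.36 and the wt arrays at 12.75, 12.82 and 12.75. All Tg values lay below all wt values, and the difference was -0.24 ± 0.0737 (adjusted p = 0.0677). The probeset 1448237_x_at was at 12.63, 12.74 and 12.34 in Tg and at 12.87, 12.87 and 12.82 in wt, lower by a log2 difference of -0.28 ± 0.0749 (adjusted p = 0.0349). For 1434499_a_at the values were 12.62, 12.70 and 12.51 in Tg and 12.74, 12.94 and 12.95 in wt, a difference of -0.27 ± 0.0712 (adjusted p = 0.0359). These were the 2 probesets called of 75, where 1.85% of all probesets were called lower in Tg at this age. The last Ldhb probeset, 1455235_x_at, differed by -0.36 ± 0.105 (adjusted p = 0.0511).

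In all 4 Ldhb probesets the genotypes did not overlap at 9 months, but they read the same transcripts in the same mice and do not count as separate evidence. Without Tg replicate 3, the lowest Tg array in all 4 and the only array of that age low in choroid plexus genes, none of them was called (adjusted p = 0.153 to 0.332). Without wt replicate 2 neither of the 2 calls remained (adjusted p = 0.0902 and 0.12), and leaving out Tg replicate 1 or wt replicate 1 or 3 ended 1 of the 2 (adjusted p = 0.0584 to 0.0945). A moderated spread without the trend gave an adjusted p of 0.0668 and 0.0662. In the other direction, the probeset shown was called without Tg replicate 2 (-0.31 ± 0.0774, adjusted p = 0.0207), without quantile normalization (adjusted p = 0.0306) and with a replicate block (adjusted p = 0.049), and the median over the Ldhb probesets was called (adjusted p = 0.024). Fitted to the arrays of that age alone, none was called either (adjusted p = 0.197 to 0.39). At the other ages the Ldhb difference on the probeset shown was between -0.07 and 0.01. The log2 beta-actin 3'/5' ratio of Tg and wt arrays did not overlap at 9 months (exact permutation test, two-sided, p = 0.1, the smallest possible for 3 against 3), with 0.709 to 0.756 in Tg and 0.768 to 0.963 in wt. Of 8 markers of hippocampal principal cells Prox1 and Dsp were called higher in Tg, and the sum over the 8 was 23400 to 26300 in Tg and 20200 to 22200 in wt. Their part in the Ldhb difference was not tested.

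The next smallest p at 9 months was that of Idh1, with 10.70, 11.30 and 10.50 in Tg and 11.32, 11.23 and 11.12 in wt (-0.39 ± 0.149, adjusted p = 0.143). One Tg array lay among the wt arrays, and without it, Tg replicate 2, Idh1 was called (-0.63 ± 0.134, adjusted p = 0.00943). Leaving out the Tg array nearest to wt can only widen the difference. The second Idh1 probeset, 1419821_s_at, was at -0.10 ± 0.0911 with all arrays (limma, adjusted p = 0.598). At 4.5 months Dlat was at 11.18, 11.37 and 11.38 in Tg and at 11.12, 11.05 and 11.03 in wt (0.24 ± 0.0679, adjusted p = 0.523), and Suclg1 at 12.06, 12.23 and 12.19 against 12.07, 11.98 and 12.03 (0.14 ± 0.0545, adjusted p = 0.753). At 20 months Pfkp was at 11.77, 11.92 and 11.65 in Tg and at 11.96, 11.94 and 11.94 in wt (-0.17 ± 0.0711, adjusted p = 1), and Ldha was at 12.46, 12.47 and 12.23 against 12.57, 12.57 and 12.49 (-0.16 ± 0.0773, adjusted p = 1). The 2 smallest p at 10 days were those of Eno2 (0.10 ± 0.0578, adjusted p = 0.776) and Sucla2 (-0.10 ± 0.065, adjusted p = 0.808), and at 14.5 months those of Suclg1 (0.06 ± 0.0545) and Idh1 (-0.16 ± 0.149), both with an adjusted p of 1. Averaged over ages the smallest p was that of Pdk1 (-0.11 ± 0.0409, adjusted p = 0.48).

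**Figure D5:**
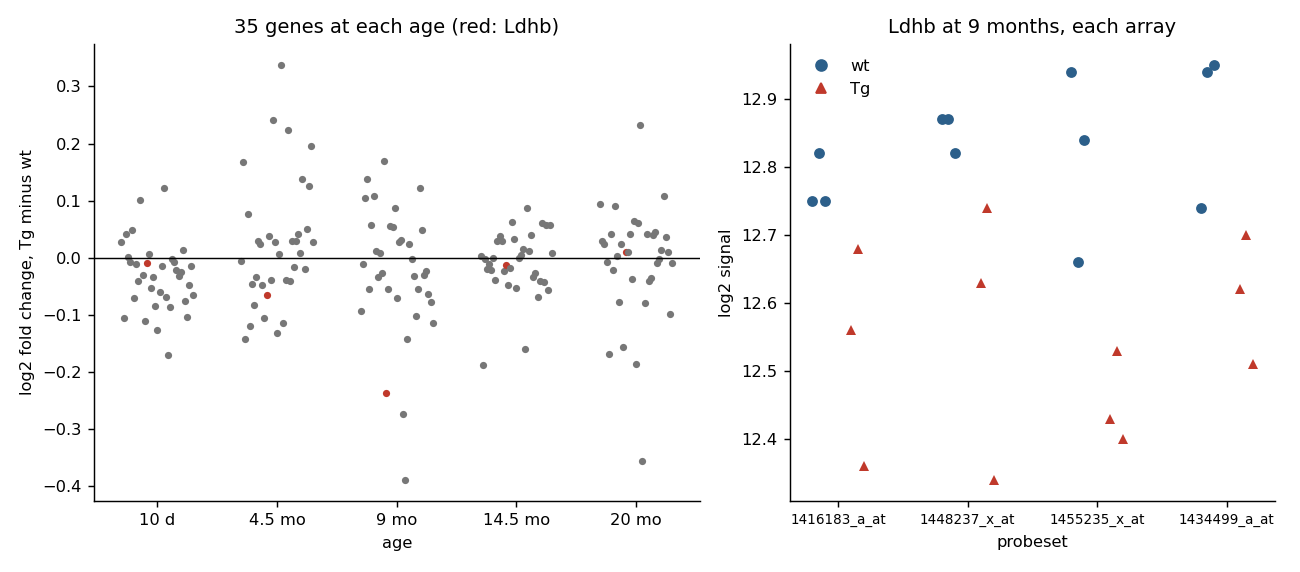
Left, log2 difference of Tg minus wt for the 35 genes at each age, with Ldhb in red. Right, log2 signal of 4 Ldhb probesets in the 6 arrays at 9 months (circles wt, triangles Tg), where all Tg arrays lie below all wt arrays of the same probeset and only 1448237_x_at and 1434499_a_at passed the test.

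Other genes of these pathways were listed as well, among them transporters of glucose, lactate and pyruvate, further isozymes and regulators, and enzymes beside the cycle. Of 45 listed, 39 were tested, and 13 rose and 15 fell from 10 days to 4.5 months, shares near the 31.2% and 35.5% of all genes. The largest fall was that of Slc16a1, the monocarboxylate transporter MCT1, which carries lactate and ketone bodies (by 2.21 ± 0.0867 on the log2 scale). Aco1, the cytosolic aconitase, decreased by 0.74 ± 0.0968 and Bsg, the chaperone of the monocarboxylate transporters, by 0.65 ± 0.0776. The largest rises were those of Aldoc, the aldolase of astrocytes and Purkinje cells (0.86 ± 0.0349), Tigar (0.80 ± 0.128) and Pdp1, the phosphatase that switches the pyruvate dehydrogenase complex on (0.66 ± 0.0649).

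From 4.5 to 20 months 9 of the 39 rose and 11 fell, beside 22.4% and 19.9% of all genes. Slc2a1, the glucose transporter of the blood-brain barrier and of glia, had the largest rise at 0.89 ± 0.0758, followed by Slc16a1 at 0.78 ± 0.0896 and Bsg at 0.63 ± 0.0801. Slc16a3, with log2 signals of only 2.78 to 6.07 (median 4.63) at 20 months, decreased by 2.01 ± 0.52, Tigar by 0.91 ± 0.132 and Sdhc, a membrane subunit of succinate dehydrogenase, by 0.81 ± 0.0699. In Tg vs. wt mice 1 of the 39 was called at 9 months, where 2.99% of all genes were, and none at the other ages. It was Bpgm, bisphosphoglycerate mutase, lower in Tg by a log2 difference of -0.31 ± 0.0874 (adjusted p = 0.0473).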

How the data were processed

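The deposited table holds linear signal intensities that the authors made with MAS5, according to the labels (version not given), scaled so that the trimmed mean of each array was 500. The methods describe RMA values from image files, which were not used here, and no detection calls were in the table. The 64 control probesets were set aside, signals were turned to log2 and quantile normalized, and a probeset was tested when 3 or more arrays held it above their own median. No 2 arrays were identical, and within a group the lowest correlation was 0.934. Array medians were 91.9 to 140.3.

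Limma 3.58.1 in R 4.3.3 fitted a mean for each of 10 groups with a moderated spread (trend, robust), and intervals are at 95%. P-values were adjusted over 26877 probesets. Arrays were taken as replicates, and their number limits the precision. The model was tested on simulated data.

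Values for each array were given for the members of isozyme pairs, the 4 largest called changes in each direction, and the 2 smallest p in each genotype comparison, and for other pathway genes the 3 largest called changes in each direction. The members, lists and tests were chosen with earlier results of these data known. The comparison of 14.5 with 20 months, each genotype alone, and leaving out arrays low in choroid plexus genes were added after the values had been seen.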

Additional observations from a re-analysis of the deposited data

Results flagged for a closer look

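Among the 4 wt arrays at 10 days, the only group large enough to be checked for a single array far from the rest, 2 of 35 genes had one. Chance alone marks about 1 in 20 such groups. Eno2 was at 12.28 in wt replicate 4 and at 12.12 to 12.13 in the other 3 arrays, so that the gap took up 0.952 of the whole range. The Tg arrays of that age were at 12.18 to 12.33. Pdk1 was at 10.04 in wt replicate 2 and at 10.18 to 10.21 in the others, a gap of 0.843 of the range. Both gaps are above Dixon's critical value for 4 arrays. No member passed the test of a genotype difference that varied with age.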

How the results depend on the processing

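Counts of members called moved by less than 1.5 times under the other scalings, filters and summaries tried, with these exceptions. A fold of at least 1.3 with an adjusted p of at most 0.01 left 17 genes for maturation and 5 for aging. In Tg vs. wt mice at 9 months 1 gene, Ldhb, was called without quantile normalization, with the median over probesets, and with the replicate block. Tg and wt arrays of the same age and replicate number did not deviate together (r -0.112 to 0.0549, 0 of 15 pairs over 0.1), and over all groups the r of same-numbered arrays ran from -0.2 to 0.275 with medians of -0.0185 to -0.00966. The numbers therefore give no pairing, and the block changed no other count of the genotype comparisons, with 30 members called for maturation and 21 for aging. Leaving out 1 array at a time gave 28 to 31 members for maturation, 19 to 23 for aging, 15 to 20 for 14.5 to 20 months, and 0 to 2 for Tg vs. wt at 9 months (Ldhb without Tg replicate 1 or 3 at 10 days, and Ldhb and Idh1 without Tg replicate 2 at 9 months). Without the arrays low in choroid plexus genes, an alternative chosen after seeing the data, 27 and 16 members were called. The settings run gene by gene do not include that fold threshold or the arrays low in choroid plexus genes. Under them 19 of 35 genes kept their test result, and the direction of any call, for maturation, and 15 for aging. A change of sign between uncalled values was not counted as a change. When 1 array was left out, only the runs with the lowest and highest estimate of each gene entered this count.

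Where a value was called before or after the change of setting, directions turned as follows, and the cause was not tested. For maturation, Tpi1 was at -0.108 without quantile normalization. With the median over probesets Pdk1 was at 0.247, Cs at 0.0105 and Dlst at 0.602. With 9 in place of 4.5 months Idh2 was at 0.106, Ogdh at -0.0501, Suclg2 at -0.262 and Mdh1 at -0.22. For aging, the median over probesets gave 0.173 for Pgk1 and -0.159 for Cs. With 9 months as the start Pfkp was at -0.0213, Aldoa at -0.169, Ldhb at 0.189 on the probeset shown, and Pdha1 at -0.133. Idh1 was then at -0.153, Idh2 at -0.0483, Ogdh at 0.0299 and Suclg2 at 0.22. Uncalled values also turned, among them Idh3b (-0.032 from 4.5 months, 0.0086 from 9 months) and Idh3g (-0.0085 and 0.0081).

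Calls not yet named were also lost, in maturation for Pfkp and Ogdh with the median over probesets, Pdha1 with 9 months and Dlst without wt replicate 2 at 4.5 months, and in aging for Ldhb without quantile normalization (-0.0604), Tpi1 and Mdh2 with 9 months, Pfkp without Tg replicate 2 at 20 months and Pgam1 without Tg replicate 1 at 4.5 months.

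Among the pairs in aging, 9 months as the start gave 0.0677 for Ldhb/Ldha, 0.0332 for Hk1/Hk2, -0.161 for Pfkm/Pfkp, -0.0372 for Sucla2/Suclg2 and 0.353 for Idh3a/Idh2. Hk1/Hk2 was at -0.266 without quantile normalization and at -0.493 to -0.285 with 1 array left out. The median over probesets gave 0.0453 for Sucla2/Suclg2 and 0.456 for Idh3a/Idh2. In maturation it gave -0.0563 and -0.314 for these pairs, 9 months gave 0.13 for Sucla2/Suclg2, and leaving out 1 array gave 0.176 to 0.299 for Idh3a/Idh2. Some pair values stayed past the threshold but moved by over 1.5 times: Pfkm/Pfkl at -0.816 (median over probesets) and -0.707 (9 months) in maturation and at 0.636 and 0.53 in aging, Pfkm/Pfkp at -0.63 and Ldhb/Ldha at -0.351 in aging with the median, and Sucla2/Suclg2 at -0.383 in maturation without quantile normalization. The Eno2/Eno1 pair was not run, because Eno1 has no probeset under its symbol. The table holds no background signal, so dim genes such as Slc16a3 and Hk2 have an unknown distance from background.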
